A study of Mus musculus with 240 samples.

Results

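The myelin structural genes described here are 9 genes whose proteins build or organise the myelin sheath: Mbp, Mobp, Mog, Mag, Cnp, Cldn11, Mal, Opalin and Ermn. They were taken by symbol from the deposited expression table, which lists 34623 mouse genes. All 9 were found, and all 9 passed the filter on low counts in the bulk samples and in both kinds of small library.

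The cells were tdTomato-positive oligodendrocyte precursor cells (OPCs) of the mouse, cut from cryosections by laser-capture microdissection. Mutant cells were Trp53-/- Nf1-/- and are called CKO in the sample names, and control cells were wild-type (WT). Times are days from the start of tamoxifen treatment (dpi), so that every group, WT included, is dated from tamoxifen. The cell type that drives recombination and the ages of the mice are not given in the sources used here. Bulk libraries from 10 µm sections came from 37 animals, each taken as 1 sample: 5 WT and 7 CKO at 12 dpi, 5 WT and 7 CKO at 90 dpi, and 6 WT and 7 CKO at 150 dpi, where the CKO cells were brain tumour cells. Small libraries from 8 µm sections were all CKO. They comprised 56 libraries labelled as 10-cell samples and 40 labelled as pool-and-split controls at 12 dpi, and as many at 90 dpi. In a pool-and-split control, material of many cells is pooled and then divided, so that the spread of such libraries measures technical spread. Small libraries formed sets by time, sex and the number that ends the label, with 4 sets of 14 10-cell libraries and 4 sets of 10 pool-and-split libraries at each time. The labels do not say whether the sets came from separate mice, so p-values over sets measure only the spread between these sets.

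Myelin is the membrane that oligodendrocytes wrap around axons, and OPCs are the dividing cells from which oligodendrocytes form. Precursors hold few transcripts of most structural myelin genes. Transcription of these genes climbs in committed precursors and reaches its height in myelinating cells, under factors that include Sox10 and Myrf. MBP joins the cytoplasmic faces of the membrane and MOBP is a further small basic protein of compact myelin. MOG lies on the outer surface of the sheath, and MAG on the membrane that faces the axon. CNP keeps cytoplasmic channels open in the sheath and is made from an early stage of the lineage. CLDN11 forms tight junctions between the layers. MAL is a proteolipid of membrane trafficking, OPALIN a transmembrane glycoprotein of oligodendrocytes, and ERMN a cytoskeletal protein of late oligodendrocytes.

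Promoter sequence is shown for Mobp, Ermn and Opalin, which were low in tumours, and for Cnp, which was not. The bases are the RefSeq promoters of GRCm38.p6 up to the start of the gene, read 5′ to 3′ on the strand of the gene. Capitals mark ACAAAG, the core bound by SOX factors, or its reverse complement CTTTGT.
Mobp, chr9:120149492-120149706, plus strand: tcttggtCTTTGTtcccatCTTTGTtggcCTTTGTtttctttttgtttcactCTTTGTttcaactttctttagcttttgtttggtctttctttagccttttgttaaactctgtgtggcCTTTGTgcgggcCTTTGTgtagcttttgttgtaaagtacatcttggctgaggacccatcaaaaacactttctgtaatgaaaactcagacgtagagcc
Ermn, chr2:58052865-58053114, minus strand: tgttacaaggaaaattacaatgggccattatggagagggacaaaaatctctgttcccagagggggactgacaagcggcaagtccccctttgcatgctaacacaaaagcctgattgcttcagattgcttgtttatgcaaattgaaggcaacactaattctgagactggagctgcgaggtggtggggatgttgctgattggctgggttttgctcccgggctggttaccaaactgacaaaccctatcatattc
Opalin, chr19:41077114-41077363, minus strand: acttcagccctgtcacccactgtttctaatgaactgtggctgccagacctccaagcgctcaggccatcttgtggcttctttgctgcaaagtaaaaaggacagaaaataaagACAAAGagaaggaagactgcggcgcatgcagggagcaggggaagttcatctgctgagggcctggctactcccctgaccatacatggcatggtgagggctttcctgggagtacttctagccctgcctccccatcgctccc
Cnp, chr11:100574689-100574903, plus strand: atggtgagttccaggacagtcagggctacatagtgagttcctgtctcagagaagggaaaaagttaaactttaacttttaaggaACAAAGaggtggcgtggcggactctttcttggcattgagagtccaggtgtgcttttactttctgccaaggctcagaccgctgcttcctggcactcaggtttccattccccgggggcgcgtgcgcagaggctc
The Mobp window held 6 matches, all in the reverse orientation, Opalin and Cnp held 1 each, and Ermn held 0. Over all 32851 promoters, counted in the 250 bases before the start on both strands, 16.5% held at least 1 match, 0.0213% held 4 or more, and 6 was the highest number, found in 1 promoter. RefSeq promoters were matched for 8 of the 9 genes. Mal, Cldn11 and Mog held 0 matches, and of the 3 promoters listed for Mag 2 held 1 match each. The MYRF motif CTGGNAC, present in 16.1% of promoters, had 2 matches at Cnp and at 2 of the Mag promoters and 1 at Mog. Such matches describe letters in a window and were not measured as sites.

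Total counts per library, in units of 1000000, ran from 0.0937 to 23.2 in bulk (median 10.0), from 1.64 to 6.49 in 10-cell libraries and from 1.91 to 5.16 in pool-and-split libraries. The most shallow bulk library was WT_21167 at 90 dpi, where Opalin had 0 counts; taking 3 counts as the limit that 0 allows, its level there could be up to 28.4 CPM. Mean Nf1 in counts per 1000000 (CPM) was 312 in WT and 191 in CKO at 12 dpi, 300 and 196 at 90 dpi, and 301 and 214 at 150 dpi. Mean Trp53 was 32.3 and 31.4 CPM, 23.5 and 27.2 CPM, and 26.0 and 44.3 CPM at those times. All 10 OPC markers were detected in every bulk group, but so were all 9 neuron markers, whose summed level had group medians from 8178 to 9429 CPM outside the tumours and 497 CPM in them. In tumours the OPC markers summed to a median of 9102 CPM, against 3257 to 4112 CPM in the other groups. In bulk samples, fewer cells of a type and less RNA per cell cannot be told apart.

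In 2 of the 11 animals with 2 libraries, the libraries disagreed on the myelin genes. Tumor_16713 had 1964 CPM of Mbp, 391 CPM of Mobp and 68.0 CPM of Ermn in its shallower library, and 58.2, 1.13 and 0.23 CPM in its deeper library. Mog was 21.8 against 0.45 CPM and Mag 39.4 against 0.45 CPM, while Cnp (227 and 198 CPM) and Cldn11 (152 and 135 CPM) were close. Neuron markers moved with the myelin genes, summing to 674 CPM in the shallower and 50.9 CPM in the deeper library. OPC markers summed to 12657 and 16569 CPM. CKO_20647 at 90 dpi had all 9 genes in its deeper library, among them 265 CPM of Cldn11, 118 CPM of Ermn and 115 CPM of Mal. Its shallower library, of nearly the same depth (9.47 against 9.67 in those units), held 0 counts of 6 of them (3 counts would be 0.32 CPM) and had 15.6 CPM of Cnp against 209 CPM. That library stood apart in other genes too, with 13265 genes detected against 17957. Neuron markers summed to 18493 CPM against 8199 CPM and astrocyte markers to 8955 against 3001 CPM, opposite to the myelin genes, while OPC markers (1617 against 3039 CPM) and microglia markers (20.8 against 293 CPM) were lower with them. What separates the libraries was not tested. In the other 9 animals the median difference over the genes, taken without sign, was 0.28 to 0.97 on the log2 scale. Both libraries were summed in the results, and values with the deeper libraries alone are given for Ermn, Mobp, Mag and Mbp.

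**Figure D1:**
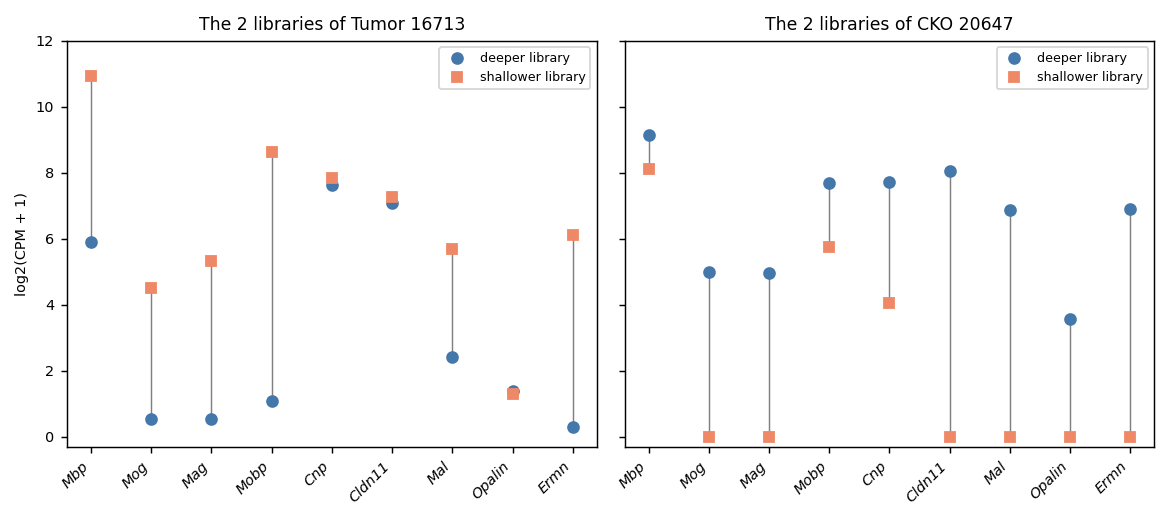
Level of each myelin gene in the deeper and shallower library of Tumor_16713 and of CKO_20647 (CPM on a log2(CPM + 1) axis; 1 point per library). In the tumour Mbp, Mobp and Ermn lie far apart while Cnp and Cldn11 nearly coincide, and in CKO_20647 the shallower library has 6 genes at 0.

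Tumours held far less RNA of Ermn, Mobp, Mal, Mog and Opalin than WT OPCs of the same time, while Cnp was higher and Cldn11 varied over a wide range. Of the 9 genes, 5 fell and 1 rose (edgeR quasi-likelihood test, adjusted p under 0.05 over 16346 genes). Among all genes tested, 21.9% were called lower and 24.3% higher. The median log2 change of the 9 genes was -2.11, beside 0.06 over all genes. Every tumour lay below every WT animal for Ermn, Mobp and Mal, a pattern that 8.96% of all genes showed. The same tumours were also set against CKO cells at 90 dpi, before tumours were sampled. There 6 of the 9 genes fell and none rose, beside 22.6% of all genes called lower and 26.4% called higher, with medians of -2.82 and 0.12. As the comparisons share the tumours, they are not independent of each other, and the values stand side by side. Of tumours against WT, DESeq2 called 4 genes lower and Cnp higher, and of tumours against CKO it called 5 lower. It gave no adjusted p for Mobp.

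**Figure D2:**
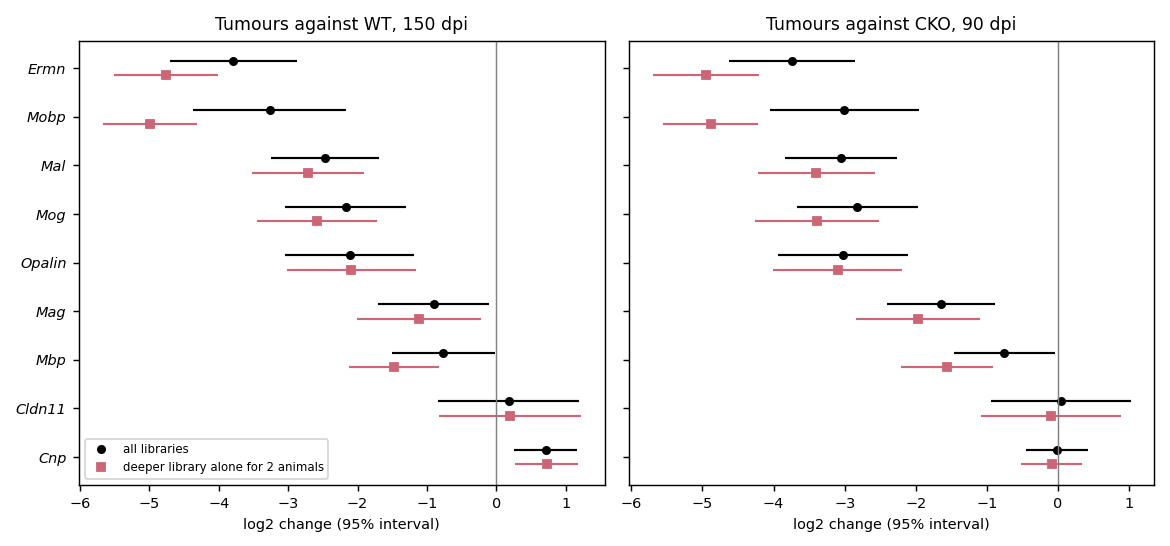
Log2 fold change of each myelin gene in tumours against WT at 150 dpi and against CKO at 90 dpi. Circles are fits with all libraries, and squares fits with the deeper library alone of Tumor_16713 and CKO_20647. Horizontal bars are 95% intervals from the edgeR fit, and the grey vertical line is 0. Ermn, Mobp, Mal, Mog and Opalin lie below -2 in both comparisons, Cnp and Cldn11 lie near or above 0, and Mag and Mbp lie between.

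Ermn (ENSMUSG00000026830, chr2:58045113-58052864) had the largest change of the 9 in both comparisons with both libraries of Tumor_16713 summed. Against WT, Mobp had a larger one with the deeper libraries alone (-4.99 against -4.75) and without that animal (-4.81 against -4.59). Ermn ran from 39.9 to 200 CPM in WT at 150 dpi (median 72.5, n = 6), from 44.4 to 125 CPM in CKO at 90 dpi (median 97.5, n = 7) and from 2.01 to 25.5 CPM in tumours (median 3.05, n = 7). The highest tumour was Tumor_16713 and the next held 9.16 CPM, so no tumour reached the lowest animal of either group. Its log2 change was -3.79 ± 0.47 (SE) against WT, 13.8-fold lower (adjusted p = 2.1e-08), and -3.74 ± 0.45 against CKO, 13.4-fold lower (adjusted p = 1.1e-08). With the deeper libraries alone the changes were -4.75 and -4.95, and with the shallower ones -3.16 and -2.86.

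Mobp (ENSMUSG00000032517, chr9:120149707-120181484) ran from 164 to 310 CPM in WT (median 196), from 114 to 277 CPM in CKO at 90 dpi (median 182) and from 2.42 to 147 CPM in tumours (median 8.42). Tumor_16713 gave the 147 CPM, and the other 6 tumours held at most 14.4 CPM. The log2 change was -3.26 ± 0.56 against WT (9.6-fold lower, adjusted p = 9.6e-06) and -3.0 ± 0.54 against CKO (8.02-fold lower, adjusted p = 1.6e-05). These values rest on 1 animal for their size: without Tumor_16713 they were -4.81 and -4.65, and with the deeper libraries alone -4.99 and -4.89. With the shallower ones they were -2.38 and -1.99.

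Mal (ENSMUSG00000027375, chr2:127633226-127656695) was 66.5 to 127 CPM in WT (median 87.5), 68.1 to 212 CPM in CKO at 90 dpi (median 151) and 4.95 to 64.7 CPM in tumours (median 9.16). Tumor_21256 held the 64.7 CPM, just below the lowest WT animal, and the next tumour held 20.9 CPM. The log2 change of Mal was -2.48 ± 0.40 against WT (5.56-fold lower, adjusted p = 3.1e-06) and -3.05 ± 0.40 against CKO (8.31-fold lower, adjusted p = 6.5e-08).

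Mog (ENSMUSG00000076439, chr17:37010743-37023398) and Opalin (ENSMUSG00000050121, chr19:41062474-41077113) were low in every group. Mog was 3.97 to 28.3 CPM in WT (median 17.1), 18.0 to 39.7 CPM in CKO at 90 dpi (median 25.3) and 0.54 to 10.0 CPM in tumours (median 2.16). Opalin was 0.57 to 9.17 CPM in WT (median 5.36), 5.69 to 16.7 CPM in CKO at 90 dpi (median 8.75) and 0.13 to 3.44 CPM in tumours (median 1.15). Tumours overlapped WT in both genes but lay wholly below the CKO animals, as in 10.5% of all genes. Mog fell in both comparisons, with a log2 change of -2.17 ± 0.44 against WT (adjusted p = 0.00011) and -2.82 ± 0.44 against CKO (adjusted p = 1.5e-06). So did Opalin, with -2.11 ± 0.48 (adjusted p = 0.00038) and -3.02 ± 0.47 (adjusted p = 1.6e-06).

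Mag (ENSMUSG00000036634, chr7:30899176-30914873), the adhesion protein of the inner membrane, passed the test against CKO only. It was 7.93 to 30.1 CPM in WT (median 20.6), 17.7 to 59.4 CPM in CKO at 90 dpi (median 33.5) and 1.06 to 23.5 CPM in tumours (median 13.0). The tumours overlapped both groups. The log2 change was -1.64 ± 0.39 against CKO (3.12-fold lower, adjusted p = 0.0006) and -0.91 ± 0.40 against WT (adjusted p = 0.064). Mag passed against WT when Tumor_16840 (-1.12, adjusted p = 0.024), Tumor_16844 (-1.08, adjusted p = 0.037) or WT_21592 (-1.04, adjusted p = 0.039) was left out. With the deeper libraries alone it also passed against WT (-1.11, adjusted p = 0.043), and with the shallower ones it passed in neither (adjusted p = 0.068 against CKO).

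Mbp (ENSMUSG00000041607), the gene with the most counts of the 9, was 312 to 590 CPM in WT (median 410), 289 to 614 CPM in CKO at 90 dpi (median 408) and 45.3 to 761 CPM in tumours (median 162). Of the 7 tumours, 5 lay below the lowest WT animal and 1, Tumor_16713, above the highest. The log2 change was -0.76 ± 0.38 against WT (95% interval -1.50 to -0.02, adjusted p = 0.097) and -0.75 ± 0.36 against CKO (adjusted p = 0.083), neither past the threshold. Without Tumor_16713 Mbp passed in both, at -1.30 (adjusted p = 0.0014) and -1.36 (adjusted p = 0.00075). With the deeper libraries alone it passed at -1.48 (adjusted p = 0.00037) and -1.56 (adjusted p = 0.00015). With the shallower ones alone it passed in neither, at -0.19 (edgeR, adjusted p = 0.79) and -0.09 (edgeR, adjusted p = 0.90).

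Cnp (ENSMUSG00000006782, chr11:100574904-100591729) was 64.0 to 143 CPM in WT (median 128), 132 to 273 CPM in CKO at 90 dpi (median 168) and 55.2 to 308 CPM in tumours (median 181). Of the 7 tumours, 6 lay above the highest WT animal, while Tumor_16839 lay below the lowest. Cnp rose by 0.71 ± 0.23 on the log2 scale against WT (1.63-fold, adjusted p = 0.012) but not in a fit of the tumour and WT animals alone (0.77, adjusted p = 0.081). Against CKO its change was -0.01 ± 0.22, with a 95% interval from -0.44 to 0.42. Of its 3639 exonic bases, 154 overlap exons of Dnajc7 on the opposite strand, which changed by -0.07 against WT (adjusted p = 0.72).

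Cldn11 (ENSMUSG00000037625, chr3:31149920-31164324) was 43.3 to 380 CPM in WT (median 96.3), 36.2 to 256 CPM in CKO at 90 dpi (median 148) and 37.4 to 596 CPM in tumours (median 102). Tumor_16839 held the 596 CPM, and the next tumour 122 CPM. The change was 0.17 ± 0.52 against WT (95% interval -0.84 to 1.18, adjusted p = 0.82) and 0.04 ± 0.50 against CKO (-0.94 to 1.02, adjusted p = 0.96). A change of the size that Cnp showed against WT lies within both intervals.

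**Figure D3:**
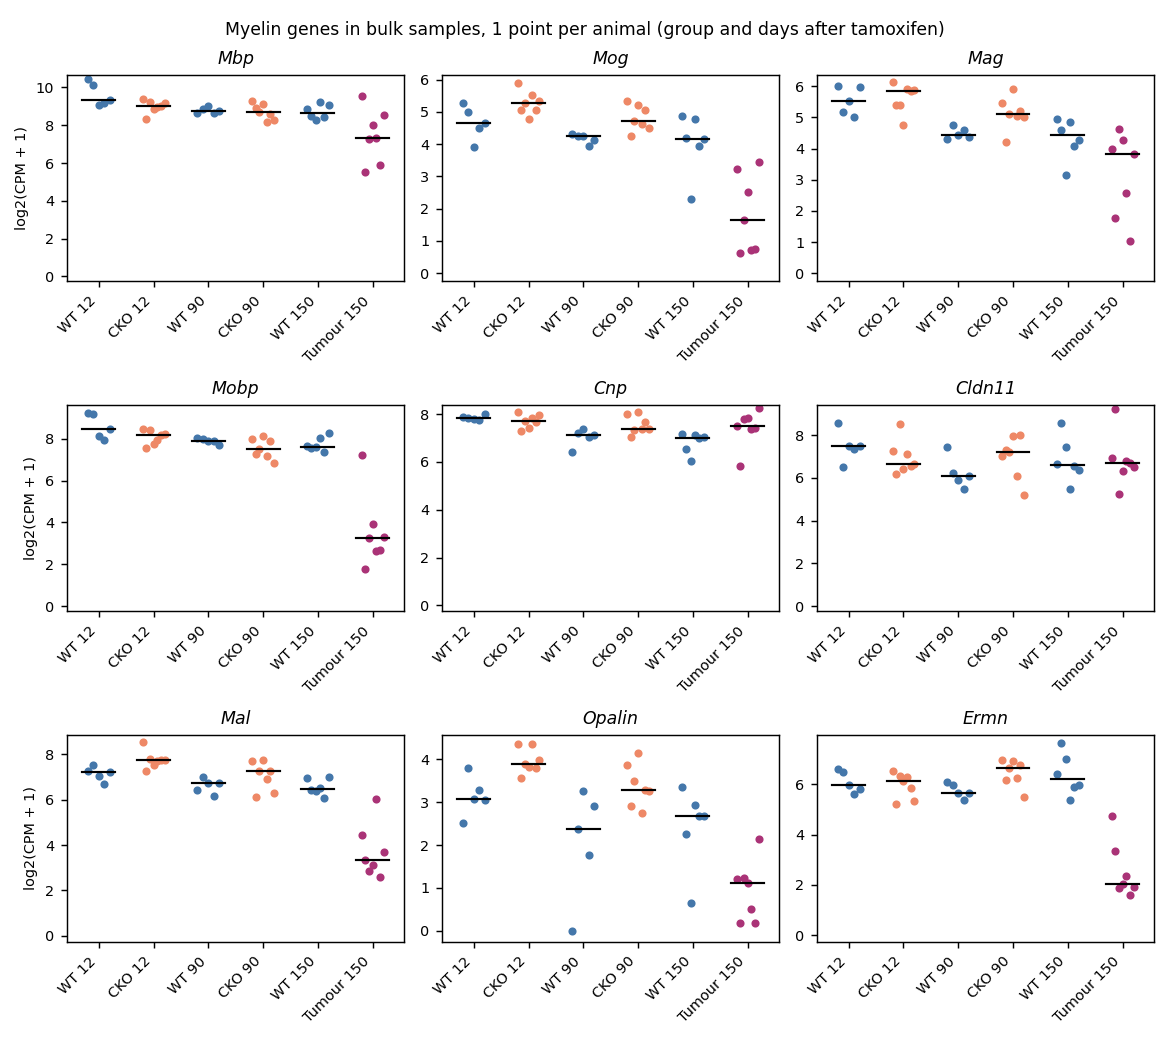
Level of each myelin gene in every bulk animal (1 point per animal, CPM on a log2(CPM + 1) axis) by group, with the group median as a bar. Tumours sit below all other groups for Ermn, Mobp and Mal, apart from single tumours such as the 147 CPM of Mobp, and spread among them for Cnp and Cldn11.

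The tumours also differed from each other in which genes were low. Of the 9 genes, the number below the lowest WT animal was 8 in Tumor_16839, 7 in Tumor_21349 and Tumor_21256, 6 in Tumor_16840, 4 in Tumor_16844, and 3 in Tumor_21354 and Tumor_16713. Tumor_16839 had the lowest Mbp (45.3 CPM), Mobp and Cnp of all tumours together with the highest Cldn11. The summed level of the 9 genes was 342 to 1282 CPM in tumours (median 615) and 893 to 1351 CPM in WT at 150 dpi (median 1202). The make-up of that sum shifted. Cnp made up a median of 10.8% of it in WT and 37.5% in tumours, Mobp 19.1% and 1.58%, Mal 7.99% and 1.45%, and Ermn 6.74% and 0.59%. The share of Mbp was 39.2% and 33.4%.

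Levels were also divided by the kilobases of all annotated exons of each gene. Whether counts scale with that length in these libraries was not tested, and the order of the genes depends on the division. Without it, mean Mbp (434 CPM) stood above mean Cldn11 (145 CPM) in WT at 150 dpi. Per kilobase, the order in that group was Cldn11 (mean 77.6 CPM per kb), Mbp (51.3), Mal (34.4), Mobp (32.1), Cnp (31.8), Ermn (26.0), Mog (10.5), Mag (5.04) and Opalin (1.75). The ranges of Mal, Mobp, Cnp and Ermn overlapped, and the SD of Cldn11 (65.5) exceeded its distance from Mbp. In tumours the order was Cldn11 (86.7), Cnp (52.2), Mbp (30.5), Mal (6.47), Mobp (3.99), Mag (2.74), Mog (2.27), Ermn (1.93) and Opalin (0.39). There the SDs of Cldn11 (103), Mal (7.66), Mobp (7.70), Mog (2.31), Ermn (2.33) and Opalin (0.39) were as large as their means. Neighbours from Mal to Ermn did not differ beyond their spread.

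Other genes of the myelin programme moved in both directions. Of 22 other myelin and mature oligodendrocyte genes, 9 fell and 4 rose in tumours against WT (median log2 change -0.25), and 10 fell and 2 rose against CKO at 90 dpi (median -0.66). The strongest falls against WT were in Ppp1r14a (-3.13), an inhibitor of myosin phosphatase, and Tmem125 (-2.91), a membrane protein of oligodendrocytes. Both were low in each group, with means of 0.18 CPM in tumours and 1.35 CPM in WT for Ppp1r14a, and 0.39 and 3.06 CPM for Tmem125. The strongest rises were in Gjc3 (1.74, adjusted p = 0.00014), a connexin, and Ninj2 (1.74, adjusted p = 0.041), an adhesion protein. Mean Gjc3 was 1043 CPM in tumours and 320 CPM in WT, while Ninj2 was low, at 4.41 and 1.21 CPM.

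No transcription factor on the list of regulators of myelin genes fell in tumours. Of 13 regulators, 9 rose and 0 fell against WT (median 1.29), among them Sox10 (1.91, adjusted p = 5.4e-06; mean 151 CPM in tumours and 39.6 CPM in WT) and Nkx2-2 (1.55). Against CKO 10 rose and 0 fell, with Sox10 at 2.05 and Hes5, a repressor downstream of Notch, at 1.51. Of 7 genes of committed precursors 4 rose and 0 fell against WT, with Bcas1 at 2.84 and Itpr2 at 1.62. Against CKO 3 of these 7 rose, with Bcas1 at 2.48 and Tns3 at 1.37, and 1 fell. That was Enpp6, at -1.49 (edgeR, adjusted p = 0.0063), with means of 20.8 CPM in tumours and 59.8 CPM in CKO. Of 10 OPC markers 9 rose and 0 fell against WT, with Vcan at 2.14 and Matn4 at 1.93. Of 3 tested genes of peripheral myelin 2 rose, Pmp22 (2.40) and Prx (2.79), and Egr2, a transcription factor also used by neurons, fell (-1.97). Prx was low, with means of 1.53 CPM in tumours and 0.15 CPM in WT.

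Markers of other cells moved in the same comparison. Of 9 neuron markers 8 fell against WT (median -3.66), led by Rbfox3 (-5.46) and Camk2a (-5.29), and their sum was 262 to 1497 CPM in tumours and 7846 to 11310 CPM in WT. All 9 remained detected in the tumours. Of 9 microglia markers 8 rose, led by C1qa (2.95) and C1qb (2.94), with sums of 261 to 938 CPM and 118 to 185 CPM. Of 9 astrocyte markers 4 rose and 3 fell, with Gfap at 2.52 and Gja1 at -1.89, and of 9 endothelial markers 0 rose and 2 fell. The part of other cells in the levels of the myelin genes was not tested. Within Tumor_16713 most myelin genes and the neuron markers were high in the same library, and within CKO_20647 they were high in opposite libraries, as given above.

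Before tumours, the genotype made no difference to these genes that passed the test. Of the 9 genes, 0 were called between CKO and WT at 12 dpi and 0 at 90 dpi by edgeR and by DESeq2, and 0 had an unadjusted p under 0.05 by either tool. Among all genes 0.0184% and 0.0489% were called. At 12 dpi Mal was 153 to 375 CPM in CKO and 101, 130, 147, 155 and 182 CPM in the 5 WT animals, with 6 of 7 CKO animals above the highest WT animal (log2 change 0.68 ± 0.41). Mbp was 316 to 672 CPM in CKO and 543 to 1387 CPM in WT, with 4 of 7 CKO animals below the lowest WT animal (-0.75 ± 0.40). Opalin had a change of 0.87 ± 0.48. At 90 dpi 7 of 9 changes were positive, the largest being Cldn11 (1.04 ± 0.60), Opalin (0.92 ± 0.51) and Ermn (0.82 ± 0.47). Ermn was 40.6, 49.0, 49.1, 61.9 and 66.3 CPM in the WT animals and 44.4 to 125 CPM in CKO, of which 6 of 7 lay above the highest WT animal. The intervals of these changes were wide, from -0.09 to 1.74 for Ermn.

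Whether the genotype effect differed between times was tested as an interaction. From 12 to 90 dpi 0 of 9 genes were called by edgeR or DESeq2, beside 0.0% of all genes, and 0 had an unadjusted p under 0.05. From 90 to 150 dpi, where tumours stand for the mutant group, 6 of 9 genes shifted downward, beside 15.8% of all genes, and 0 upward, beside 14.2%. Ermn shifted by -4.61 (adjusted p = 1.5e-06), Opalin by -3.04 (adjusted p = 0.00095), Mobp by -3.02 (adjusted p = 0.0033), Mal by -2.97 (adjusted p = 0.00012) and Mog by -2.91 (adjusted p = 0.00076). Mag shifted by -1.60 (adjusted p = 0.041), a call lost when any 1 of 22 of the 37 animals was left out (adjusted p 0.019 to 0.084) and with size factors (adjusted p = 0.067), a minimum mean of 10 CPM (adjusted p = 0.057) or the compared groups alone (adjusted p = 0.089). Mbp (-0.74), Cldn11 (-0.87) and Cnp (0.21) did not pass. With the shallower libraries of Tumor_16713 and CKO_20647 alone, 3 genes passed, and Mog (adjusted p = 0.057), Mag (0.32) and Mobp (0.13) did not. The sizes moved with the library used: Mobp was -2.04 with the shallower and -4.74 with the deeper ones, and Ermn -3.81 and -5.64. Mbp passed as well with the deeper ones alone (-1.44, adjusted p = 0.022) and without Tumor_16713 (-1.23, adjusted p = 0.044).

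In WT cells the fitted change from 12 to 90 dpi was negative for all 9 genes (median -0.76, beside 0.00 over all genes), but 0 were called, beside 0.00612% of all genes. Unadjusted p-values were under 0.05 for 4 genes by edgeR and by DESeq2. Cnp was 217, 221, 226, 235 and 252 CPM at 12 dpi and 85.3, 131, 140, 146 and 164 CPM at 90 dpi (log2 change -0.76 ± 0.27). Mag was 31.3, 34.9, 44.9, 61.4 and 63.0 CPM and then 19.0, 19.7, 20.5, 23.2 and 25.9 CPM (-1.11 ± 0.48). Mbp was 543, 577, 638, 1131 and 1387 CPM and then 398, 401, 432, 462 and 526 CPM (-0.96 ± 0.44). In these 3 genes every animal of 90 dpi lay below every animal of 12 dpi, as in 1.74% of all genes. The lowest value of each at 90 dpi came from WT_21167, where Mag rested on 2 counts and Cnp on 9, and without that animal the times did not overlap either (2.99% of all genes). Cldn11 had the largest change (-1.41 ± 0.64), with overlapping animals. In a fit of the WT animals of both times alone, Cldn11 (-1.64, adjusted p = 0.023), Cnp (-0.72, adjusted p = 0.0073) and Mag (-1.09, adjusted p = 0.018) passed, beside 1.91% of all genes in that fit.

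In CKO cells from 12 to 90 dpi, 8 of 9 changes were negative (median -0.43), from -0.68 for Mal to -0.02 for Cldn11, and Ermn had 0.51. Of the 9 genes 0 were called by edgeR or DESeq2, beside 0.0% of all genes, and 0 had an unadjusted p under 0.05. In WT between 90 and 150 dpi 0 were called by either tool, beside 0.0184%, with 5 positive and 4 negative changes. The 2 largest were Cldn11 (0.91 ± 0.62) and Ermn (0.87 ± 0.49).

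The small libraries show how unevenly these transcripts were detected across libraries of about 10 mutant cells. At 12 dpi Mbp had a count in 96.4% of 10-cell libraries, Mobp in 80.4% and Cnp in 66.1%, but Mal in 48.2%, Mag in 32.1%, Cldn11 in 30.4%, Ermn in 21.4%, and Mog and Opalin in 14.3% each. At 90 dpi all 9 genes were found in more 10-cell libraries, as were 82.4% of all genes, and the median library had 10071 genes detected against 7496 at 12 dpi. The part of that general rise in the detection of the 9 genes was not tested. In pool-and-split libraries 7 of the 9 and 50.2% of all genes were found in more libraries at 90 dpi, with medians of 8651.5 and 8686 genes. In 10-cell libraries of 90 dpi Mbp had a count in all 56, Cnp in 94.6%, Mobp in 92.9%, Mal in 87.5%, Cldn11 in 67.9%, Mag in 64.3%, Mog and Ermn in 53.6% each, and Opalin in 42.9%. With every library thinned to 1500000 counts the shares of Mal were 35.7% and 80.4%, and those of Mog and Ermn were as before thinning at both times. A 10-cell library held a median of 3.5 of the 9 genes at 12 dpi and 8 at 90 dpi. In pool-and-split libraries the medians were 5.5 and 8.

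Levels in single libraries covered a wide range. In 10-cell libraries Mbp ran from 0 to 3164 CPM at 12 dpi (median 315) and from 20.1 to 4089 CPM at 90 dpi (median 450). Cnp ran from 0 to 5303 CPM (median 23.6) and from 0 to 4990 CPM (median 334), and Mobp from 0 to 1329 CPM (median 38.9) and from 0 to 2341 CPM (median 140). Median Mag, Cldn11, Mal, Ermn and Mog were 0 at 12 dpi and 13.4, 14.9, 14.4, 1.54 and 0.86 CPM at 90 dpi. Median Opalin was 0 at both times. The sum over the 9 genes was 1.22 to 9364 CPM at 12 dpi (median 509) and 48.0 to 10302 CPM at 90 dpi (median 1215). In pool-and-split libraries it was 40.5 to 3825 CPM (median 995) and 149 to 5702 CPM (median 1680), with a lower maximum and a higher minimum at both times.

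**Figure D4:**
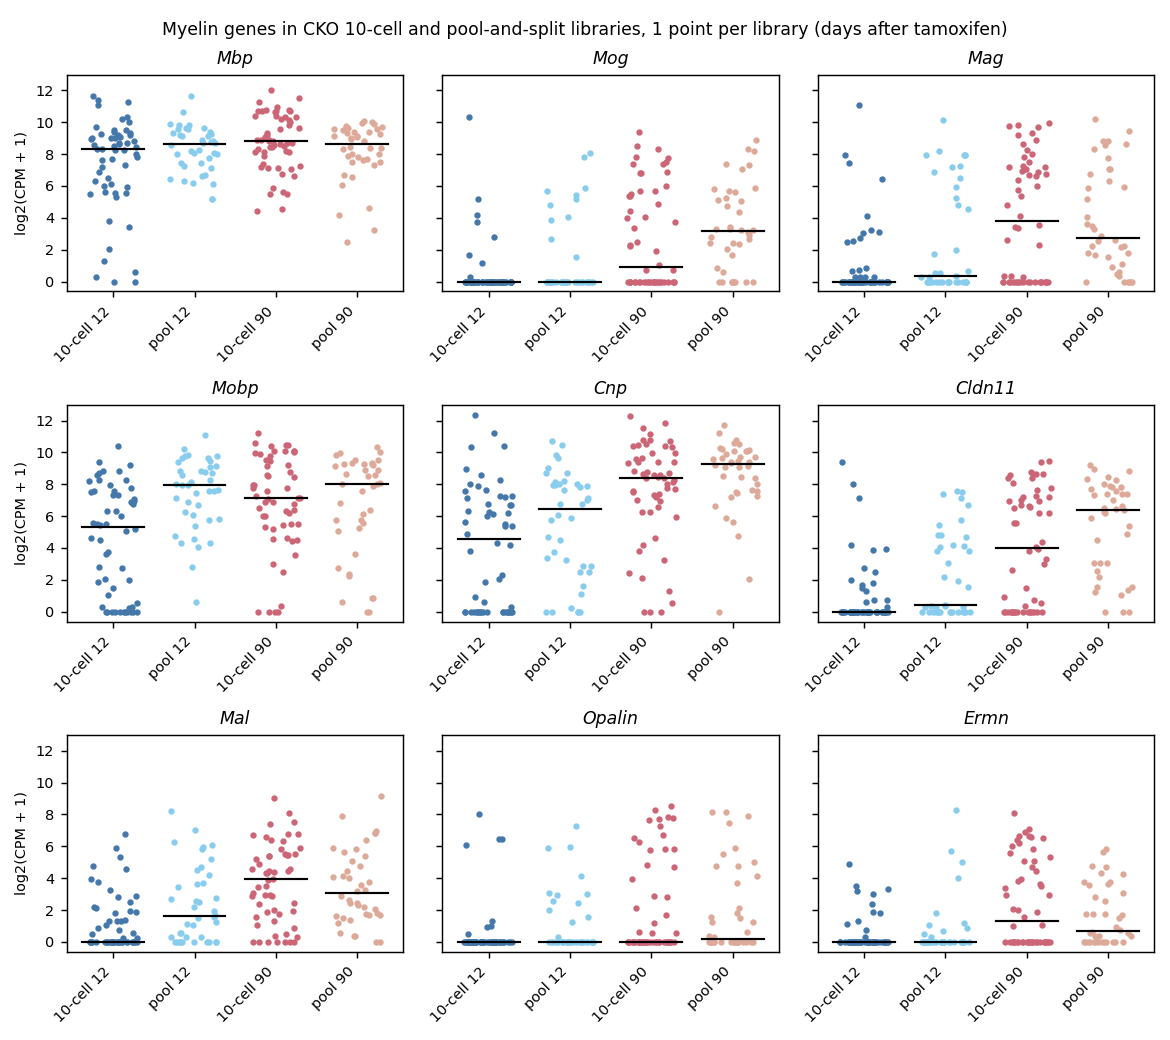
Level of each myelin gene in every 10-cell and pool-and-split library at 12 and 90 dpi (1 point per library, CPM on a log2(CPM + 1) axis, median as a bar). Medians of Mog, Mag, Cldn11, Mal and Ermn lie at 0 in 10-cell libraries at 12 dpi and above 0 at 90 dpi, and the highest library of Cnp reaches 5303 CPM at 12 dpi and 4990 CPM at 90 dpi.

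A few 10-cell libraries at 12 dpi carried most of the measured RNA of the rarer genes. The 5 highest of 56 held 99.7% of all Mog, 99.5% of Opalin, 98.5% of Mag and 96.7% of Cldn11, against 42.1% of Mbp. In pool-and-split libraries the 5 highest of 40 held 86.8%, 90.9%, 70.5% and 74.7%, against 37.8% of Mbp. For Ermn the shares were 82.8% in 10-cell and 98.9% in pool-and-split libraries. Mog and Opalin each had a count in only 8 of the 56, which alone makes a high share likely. At 90 dpi the share was 58.7% for Mog, 60.3% for Opalin, 51.4% for Mag and 41.5% for Cldn11. In pool-and-split libraries it was 70.7%, 86.1%, 66.7% and 41.2%. The part of technical spread in these shares was not tested. The 10-cell library with the highest sum at 12 dpi, from male set 1, had 5303 CPM of Cnp, 2638 CPM of Mbp and 1329 CPM of Mobp but 0 of Mog. The next, from male set 2, had 3164 CPM of Mbp, 2134 CPM of Mag, 669 CPM of Cldn11 and 266 CPM of Opalin. The library that held 1265 CPM of Mog came from female set 2. These 3 libraries held the 9 genes in different ratios. Pdgfra, the receptor that marks OPCs, was at 0, 14.8 and 0 CPM in them, in that order. The 10 OPC markers summed to 287, 218 and 889 CPM, beside a median of 326 CPM over the 10-cell libraries of that time. Neuron markers summed to a median of 2950 CPM and astrocyte markers to 1829 CPM in those libraries. Their part in the myelin levels was not tested.

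Summed over sets, the fitted change from 12 to 90 dpi was positive for all 9 genes in 10-cell libraries (median log2 change 2.18, beside -0.04 over all genes), but 0 were called by edgeR, beside 0.0% of 15178 genes. In bulk CKO animals of the same times the direction was the opposite, with 8 of 9 changes negative (median -0.43) and 0 called. The difference between bulk and 10-cell libraries was not tested. In the 10-cell sets an unadjusted p under 0.05 was seen for 6 genes by edgeR and by DESeq2, and DESeq2 called 1, beside 2.18% of all genes. That was Ermn, at 0.91, 1.29, 1.29 and 2.26 CPM in the 12 dpi sets and 11.1, 17.3, 17.4 and 49.2 CPM in the 90 dpi sets, all above the 12 dpi sets, as in 3.2% of all genes. Its change was 3.96 ± 0.79 (edgeR, adjusted p = 0.57; DESeq2, adjusted p = 6.7e-08). Cnp was 178, 206, 211 and 466 CPM and then 302, 504, 641 and 1053 CPM (1.19 ± 0.33), and the sets of the times overlapped. Mobp was 60.1, 125, 165 and 206 CPM and then 194, 367, 442 and 468 CPM (1.39 ± 0.44). Mbp had the smallest change (0.34 ± 0.29). Of the 22 other myelin genes 21 had a positive change (median 1.71), of which 0 were called, and of 10 OPC markers 3 did (median -0.35). Among markers of other cells, 8 of 9 for microglia had a positive change (median 1.2) and 7 of 9 for neurons a negative one (median -0.78, 5 of the 9 at an unadjusted p under 0.05), with 0 called. Their part in the myelin changes was not tested.

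The pool-and-split sets gave a partly different picture. Changes were positive for 6 of 9 genes (median 1.39), with 0 called by edgeR, beside 0.0% of 14220 genes, and 2 at an unadjusted p under 0.05. DESeq2 called 1, beside 4.14% of all genes. This was Cldn11, which was 6.27, 20.7, 30.0 and 67.4 CPM in the 12 dpi sets and 92.6, 119, 121 and 183 CPM in the 90 dpi sets, all above the 12 dpi sets, as in 3.43% of all genes (2.33 ± 0.74; DESeq2, adjusted p = 0.043). Ermn changed by -0.36 ± 1.75 here, with 0.06 to 34.6 CPM at 12 dpi and 2.25 to 11.8 CPM at 90 dpi. Mbp (-0.18) and Mobp (-0.23) were also near 0. The fitted change was positive in both kinds of library for Mog, Mag, Cnp, Cldn11, Mal and Opalin, and positive in 10-cell but negative in pool-and-split sets for Ermn, Mbp and Mobp. The difference between the kinds was not tested.

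Library-to-library spread was compared between 10-cell and pool-and-split libraries for the 6 genes that had a count in at least 50% of the small libraries. Mog, Opalin and Ermn fell short of that. Each library counted as 1 sample in these fits. Libraries of a set are not independent, so the SEs and p-values of this paragraph may be too small. At 12 dpi the mean deviation from the set median was larger by 1.05 ± 0.34 for Mbp and by 1.13 ± 0.40 for Mobp on the log2(CPM + 1) scale. Neither passed over 8840 genes (limma, adjusted p = 0.17 and 0.23), beside 0.136% of all genes called, though these 2 had an unadjusted p under 0.05. With deviations taken from the set mean both passed (limma, adjusted p = 0.0082 and 0.025), but so did 6.29% of all genes. The SD within sets averaged 2.90 for Mbp in 10-cell and 1.35 in pool-and-split libraries. Mag (-0.81 ± 0.50), Cldn11 (-0.87 ± 0.44) and Mal (-0.46 ± 0.31) had the opposite sign, in a group where most of their 10-cell values were 0. At 90 dpi 0 of 6 were called and 0 had an unadjusted p under 0.05 (limma, 0.0% of all genes called), and the SD of Mbp was 1.76 and 1.80. The change of the difference from 12 to 90 dpi was -0.89 ± 0.48 for Mbp, -1.13 ± 0.57 for Mobp, 1.31 ± 0.71 for Mag and 1.40 ± 0.63 for Cldn11. Of 6 genes 0 passed (limma; 2 at an unadjusted p under 0.05; 0.486% of all genes called).

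The 9 genes varied together across 10-cell libraries. After centring each library on its set, the median Pearson correlation over the 36 gene pairs was 0.32 in the 56 10-cell libraries at 12 dpi and 0.59 in the 56 at 90 dpi. In the 40 pool-and-split libraries of each time it was 0.18 and 0.33. At 90 dpi all 36 pairs were positive in both kinds of library, from 0.38 to 0.87 in 10-cell and from 0.03 to 0.53 in pool-and-split libraries. Mag and Cldn11 were the closest pair in 10-cell libraries of that time. At 12 dpi 35 pairs were positive in 10-cell and 33 in pool-and-split libraries. Without the 2 libraries farthest from the median, the median correlations in 10-cell libraries were 0.21 and 0.57. The libraries of a time share their depth and composition of cells, and zeros at 12 dpi limit what a correlation can show, so these are descriptions.

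**Figure D5:**
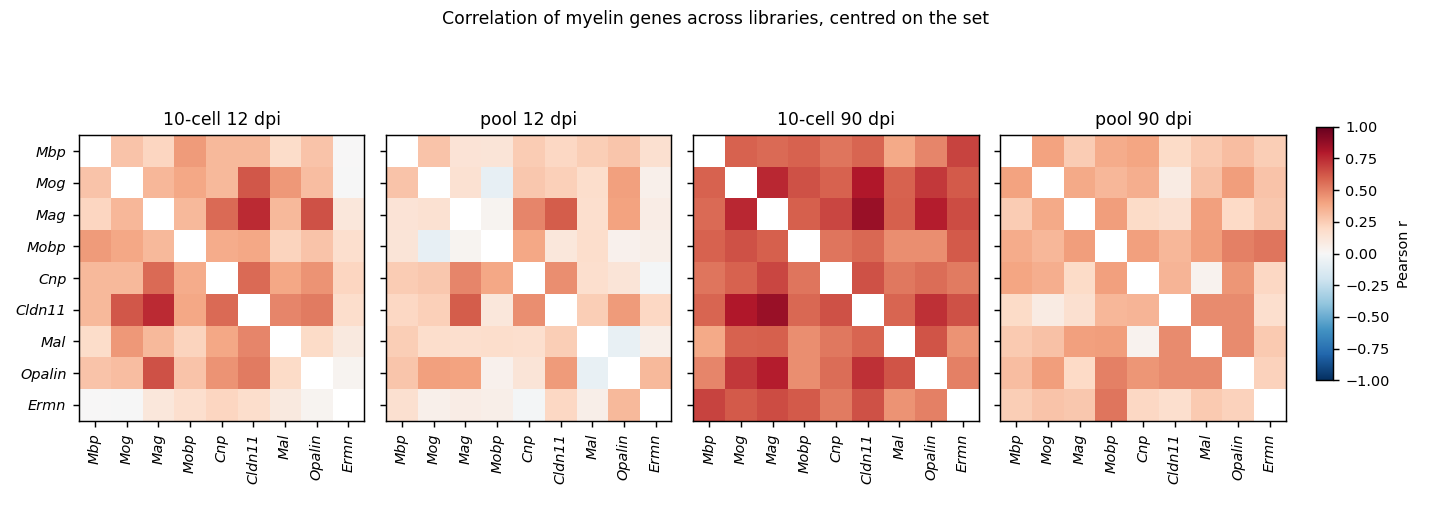
Pearson correlation of each pair of myelin genes across libraries, on log2(CPM + 1) centred on the set, for 10-cell and pool-and-split libraries at 12 and 90 dpi (colour scale from -1 to 1). The 10-cell panel at 90 dpi has the highest median, 0.59 over 36 pairs.

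Among 9083 other genes detected in at least 50% of the 10-cell libraries, the 8 most like the mean of the 9 included Tmem88b (r = 0.59), Tspan2 (0.56), Ugt8a (0.54), Kndc1 (0.54), Trf (0.53), Aatk (0.52) and Gpr37 (0.50) over the libraries of both times. Of these, Tspan2, Ugt8a, Trf and Gpr37 stood on the list of other myelin genes, of which 12 were measured here with a median r of 0.45. The median was 0.20 for 4 committed precursor genes, 0.05 for 10 OPC markers and 0.07 over all genes ranked.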

How the data were processed

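RNA was measured by sequencing in 48 bulk libraries, 56 10-cell libraries at each time and 40 pool-and-split libraries at each time. The authors deposited expected counts per gene, neither scaled nor pooled. RSEM, Bowtie2 and GRCm38 are named in the submitters' processing notes, with versions not given in the sources used here. Of the deposited expected counts 13.6% were not whole, and all were rounded. Per the labels' protocols, T7-driven linear amplification preceded the bulk libraries, and PCR and Nextera XT tagmentation the small ones. Neither protocol names molecular identifiers, so counts are of reads.

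The members and gene lists were chosen with earlier results of these data known. The genes named are all 9 members. From each list they are the 2 largest rises and falls among its called genes, with Dnajc7, Pdgfra, Nf1 and Trp53 besides. The 8 genes most like the members complete them, of which 1 is not reported here. Libraries of an animal or set were summed. After filterByExpr (at least 10 counts, total at least 15) and TMM scaling, genes were tested with edgeR 4.0.16 (R 4.3.3, quasi-likelihood, sex as covariate). All 37 animals entered 1 fit, with a biological coefficient of variation of 0.418. A gene is called where its p, adjusted by Benjamini-Hochberg over every gene tested, is under 0.05. Spread was tested with limma 3.58.1 on absolute deviations from the set median of log2(CPM + 1), CPM being per 1000000 counts without spike-ins. That fit took each library, not each set, as 1 sample, with group and sex as terms. Coordinates are those in the deposited table. Scripts were tested on simulated data. Alternatives were other scalings (size factors, DESeq2 1.42.0), filters, pseudocounts, the sex term, the compared groups alone, only the deepest library per animal, a replicate block and each replicate left out. The deeper or shallower library alone of Tumor_16713 and CKO_20647 was added after seeing the data. Intervals and SEs cover counting error and the spread between samples at hand.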

Additional observations from a re-analysis of the deposited data

Results flagged for a closer look

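In 13 of 90 groups tested (14.4%) the highest sample stood far above the others. The rule has a nominal rate of about 1 in 20, which need not hold for CPM in groups this small. The groups share animals and sets, and no share over all genes is given here, so 14.4% is not read as a trait of these genes. In tumours these were Mobp at 147 CPM in Tumor_16713 (next 14.4 CPM), Ermn at 25.5 CPM in the same animal (next 9.16 CPM), Cldn11 at 596 CPM in Tumor_16839 (next 122 CPM), Mal at 64.7 CPM in Tumor_21256 (next 20.9 CPM) and Opalin at 3.44 CPM in Tumor_21354 (next 1.35 CPM). The 2 values of Tumor_16713 came from its shallower library. In CKO at 12 dpi Cldn11 reached 366 CPM in CKO_22017 (next 152 CPM) and Mal 375 CPM in CKO_21724 (next 219.8 CPM). In WT at 90 dpi Cldn11 reached 171 CPM in WT_21167, the most shallow library (next 73.4 CPM).

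Among 10-cell sets, Mog stood at 103.5 CPM in female set 2 at 12 dpi (next 3.91 CPM), Cnp at 466 CPM in male set 1 at 12 dpi (next 211 CPM) and Ermn at 49.2 CPM in male set 1 at 90 dpi (next 17.4 CPM). Of the 14 libraries in female set 2, 1 carried 1265 CPM of Mog. Among pool-and-split sets, female set 1 at 12 dpi stood apart for Cnp at 615 CPM (next 143 CPM) and Opalin at 33.4 CPM (next 2.91 CPM).

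The genotype effect at 150 dpi, tumours against WT, differed from that at 90 dpi, CKO against WT, by an interaction term in edgeR for 6 genes. The differences on the log2 scale were -4.61 for Ermn, -3.04 for Opalin, -3.02 for Mobp, -2.97 for Mal, -2.91 for Mog and -1.60 for Mag.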

How the results depend on the processing

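Among the alternatives run, no called result changed sign. Of the 9 genes, 6 to 7 were called in tumours against WT, 6 to 7 in tumours against CKO at 90 dpi and 5 to 7 in the genotype effect from 90 to 150 dpi when each animal was left out in turn, and 0 to 0 in all other comparisons. DESeq2 called 5 in each of the 3, and the other scalings, filters and sets of samples gave 5 to 7, 5 to 7 and 4 to 7. With the deeper libraries of Tumor_16713 and CKO_20647 alone 8, 7 and 7 were called, and with the shallower ones 6, 5 and 3. Counts that moved by over 1.5 times were as follows. WT at 90 against 12 dpi gave 3 calls with the compared groups alone, and the genotype effect from 90 to 150 dpi gave 3 with the shallower library alone, as above. DESeq2 called 1 gene in the 10-cell sets and 1 in the pool-and-split sets, and with each library as a sample 2 and 1 were called (3.93% and 4.17% of all genes); libraries of a set are not independent, so those p-values are too small. Spread at 12 dpi gave 1 call with a pseudocount of 0.1 (Mobp; 0.566% of all genes) and 2 with deviations from the set mean (Mbp and Mobp), and the spread difference gave 2 with set means (Mag and Cldn11, at 0 in most 10-cell libraries of 12 dpi), beside 9.31% of all genes. What moved these counts was not tested. The fits of the compared groups alone also had fewer samples. A replicate block on the set number gave 0 calls in the 10-cell sets, 0 in the pool-and-split sets and, added after seeing the data, 0 in each spread test. Deviations of sets with the same number correlated between -0.04 and 0.03 across times and between 0.019 and 0.14 across the kinds of library, not over 0.1 in every pair, so the numbers were not taken to pair the sets, and in bulk no paired analysis was possible because the animals of different groups share no number. The median correlation of the gene pairs in 10-cell libraries at 12 dpi moved to 0.21 without 2 libraries. Size factors (RLE) in place of TMM moved the median of all genes from 0.06 to 0.22 in tumours against WT and from 0.12 to 0.29 against CKO, and the share of higher calls in the genotype effect from 90 to 150 dpi from 47.2% to 57.3% (58.6% with DESeq2). Depth limits values that rest on few counts, such as the 2 counts each of Mog and Mag in WT_21167.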
